A study of Homo sapiens with 16 samples.

Results

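Etoposide and mitoxantrone were compared by the places where each left TOP2A on cut DNA in K562 cells. A cleavage cluster region is a short stretch of the genome where DNA that had been bound to TOP2A piled up. The regions kept were those on chromosomes 1 to 22 whose deposited value, the highest where several were given, was at least 4 in both lists. That left 140657 etoposide regions of 182679 deposited and 190321 mitoxantrone regions of 202926, or 330978 of the 1481258 regions in the 5 lists of the series. The value was at most 3.95 just outside this limit and at least 4.05 just inside it for etoposide, and 3.89 and 4.20 for mitoxantrone. A region was called shared when it overlapped a region of the other drug by at least 1 bp.

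K562 is an established line from a chronic myeloid leukaemia and expresses the fusion kinase BCR-ABL1. Cells were exposed to 25 µM etoposide for 1 h or to 2 µM mitoxantrone for 1 h, both in 0.05% DMSO, which the vehicle, genistein and p-benzoquinone cultures also received. TOP2A was captured with an antibody from sonicated lysates, and the DNA bound to it was released and sequenced. The drugs differed in dose, and the mitoxantrone list rests on 1 amplified library of the 16 libraries in the series, against 3 for etoposide. The authors deposited 1 list per drug and merged the etoposide libraries into theirs. No mitoxantrone region therefore has a replicate value, and no p-value between the drugs can be given.

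Topoisomerase II alpha (TOP2A) opens a duplex by cutting its strands, passes another duplex through the gap and reseals it, and it stays covalently joined to the cut ends meanwhile. TOP2 poisons hold the enzyme in that state. Etoposide, a podophyllotoxin derivative, does so without intercalating, whereas mitoxantrone, an anthracenedione, slides its flat rings between base pairs. Both are used against leukaemia, and both are known for therapy-related leukaemias in which a translocation joins KMT2A to a partner gene or PML to RARA.

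The stretches of gene starts where regions of both drugs met are shown first, because they are the places where the same bases can be read for the pair. Of 21156 windows running from 250 bases before to 50 bases after a start, 22 met regions of both drugs, and in 9 of these the regions had at least 30 bases before the start in common. The sequences below are the 250 bases before the start, 5′ to 3′ on the gene's strand, from RefSeq on GRCh38.p14, with the bases covered by both drugs in capitals. DOK4, which encodes a docking protein of receptor tyrosine kinases (chr16:57487323-57487572, minus strand), had the longest common stretch before the start. ZIC4, a zinc finger factor of the developing cerebellum (chr3:147404285-147404534, minus strand), and CIB4, a member of the calcium- and integrin-binding family (chr2:26641367-26641616, minus strand), followed. LIG4 encodes the ligase of non-homologous end joining, the pathway that rejoins broken ends (chr13:108214783-108215032, minus strand), and is shown because it belongs to the break repair list.
DOK4: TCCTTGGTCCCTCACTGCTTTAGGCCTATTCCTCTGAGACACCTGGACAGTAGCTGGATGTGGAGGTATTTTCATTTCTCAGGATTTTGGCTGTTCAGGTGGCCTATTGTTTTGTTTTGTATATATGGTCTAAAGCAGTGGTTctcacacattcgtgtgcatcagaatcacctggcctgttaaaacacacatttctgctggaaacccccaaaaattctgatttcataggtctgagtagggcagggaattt
ZIC4: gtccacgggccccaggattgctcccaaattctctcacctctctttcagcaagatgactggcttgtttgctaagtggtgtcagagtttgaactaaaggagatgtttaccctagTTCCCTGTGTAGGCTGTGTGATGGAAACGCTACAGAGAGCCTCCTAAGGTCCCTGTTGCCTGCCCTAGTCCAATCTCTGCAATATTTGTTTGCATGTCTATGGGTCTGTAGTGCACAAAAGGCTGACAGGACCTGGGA
CIB4: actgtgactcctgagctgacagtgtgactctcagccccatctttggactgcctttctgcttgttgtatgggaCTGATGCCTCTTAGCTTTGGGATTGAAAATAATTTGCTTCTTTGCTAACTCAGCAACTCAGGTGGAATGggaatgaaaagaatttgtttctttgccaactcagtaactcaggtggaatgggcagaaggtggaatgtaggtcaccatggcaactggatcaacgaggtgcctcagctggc
LIG4: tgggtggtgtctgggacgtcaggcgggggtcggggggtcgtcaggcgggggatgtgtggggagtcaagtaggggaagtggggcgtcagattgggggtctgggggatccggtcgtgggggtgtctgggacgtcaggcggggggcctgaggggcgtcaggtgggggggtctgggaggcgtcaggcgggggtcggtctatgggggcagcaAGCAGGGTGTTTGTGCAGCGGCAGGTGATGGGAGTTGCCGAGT

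In DOK4 the common stretch took up 143 bases, from 107 to 250 before the start. The etoposide region there had a value of 12.19 and the mitoxantrone region a value of 16.53, and a DMSO region of 7.43 lay there too. In ZIC4 138 of the 181 common bases in the window lay before the start and the rest ran on past it, with values of 15.94 for etoposide and 8.41 for mitoxantrone. In CIB4 the 69 common bases lay between 109 and 178 before the start, with values of 7.78 and 14.58. A p-benzoquinone region of 7.25 also met the 250 bases shown for CIB4. In LIG4 43 of the 93 common bases in the window lay before the start, next to it, with values of 10.52 and 8.10 and no input signal in the mitoxantrone list. These stretches were mixed in composition: G and C made up 44.1% of the common bases in DOK4, 50.7% in ZIC4, 40.6% in CIB4 and 60.5% in LIG4. All 4 genes had values far below the highest of either list.

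The first comparison asks how many places both drugs marked. Few regions were shared. They numbered 7319 in each list, which was 5.20% of the etoposide regions (exact binomial 95% interval 5.09 to 5.32) and 3.85% of the mitoxantrone regions (3.76 to 3.93). These intervals, like the others given here, cover counting error only, since amplified reads that lack molecular identifiers cannot count as separate molecules. Where regions met they met well. The 7324 overlapping pairs had a median overlap of 118 bp, with quartiles of 64 and 147 bp, against median widths of 161 bp for etoposide regions and 160 bp for mitoxantrone regions, and 81.2% of the pairs overlapped by at least 50 bp. Shared bases came to 789 kb of the 24.5 Mb covered by etoposide and the 33.3 Mb covered by mitoxantrone.

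Both drugs also shared few regions with the other lists. Of the etoposide regions 5.79% met a vehicle region, 10.2% a genistein region and 4.94% a p-benzoquinone region. For mitoxantrone regions the shares were 5.17%, 9.75% and 4.47%. The lists differ in length, with 200339 vehicle, 399923 genistein and 215983 p-benzoquinone regions, so each share was also divided by the length of the list it met. Per 100000 regions of the other list, 2.73% of etoposide regions met mitoxantrone, 2.89% met the vehicle, 2.56% met genistein and 2.29% met p-benzoquinone. Mitoxantrone regions met etoposide at 2.73% per 100000, the vehicle at 2.58%, genistein at 2.44% and p-benzoquinone at 2.07%.

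Sharing between parts of the etoposide list was set beside this, mostly at values under the limit of 4. The deposited etoposide values fell on 3 series of evenly spaced steps, of 0.34, 0.23 and 0.2475, which were read as library parts and are called coarse, fine A and fine B. Of the values of at least 4, the coarse part held 126740, or 90.0%, and fine A and fine B held 284 and 1089, while 9.02% could not be assigned. With no value minimum, fine A regions also carried a coarse value at 2.62% per 100000 regions of the coarse part and met mitoxantrone at 2.26%. For fine B regions the corresponding shares were 2.50% and 2.05%. In both, the share was larger with p-benzoquinone, at 3.80% and 4.03% per 100000, and with the vehicle, at 3.03% and 3.38%. These are unlike measures. For the coarse part it was a coarse value within the same joined region, for the other lists an overlap of at least 1 bp. The coarse part was also counted with no minimum and the other lists at values of at least 4, so the rates are set side by side with no test. In fine A 17279 of 17563 values lay below 4, and in fine B 8741 of 9830. From a value of 8 on, only the coarse part was assigned. These rates are therefore no measure of sharing between libraries for the regions kept.

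Mitoxantrone regions were densest right at etoposide regions. Within 100 bp of an etoposide region's centre the mitoxantrone list had 178.8 region centres per Mb, which was 2.35-fold the density of 76.1 per Mb between 20 and 50 kb away. The density fell to 102.4 per Mb between 100 and 200 bp, 1.35-fold, and to 83.2 per Mb between 200 and 300 bp, 1.09-fold. Beyond 300 bp it lay between 1.00-fold and 1.05-fold in every class. Of the classes counted, those with 1.09-fold or more thus lay within 300 bp. The same profile counted in the vehicle list began at 2.46-fold, in the genistein list at 2.27-fold and in the p-benzoquinone list at 1.79-fold.

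**Figure D1:**
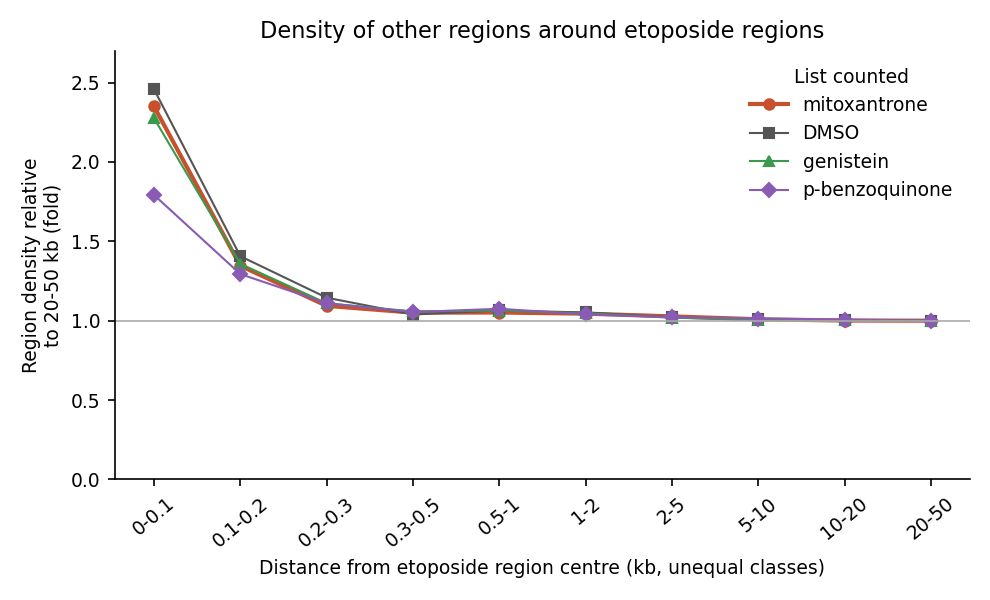
Density of region centres of 4 lists around etoposide region centres, relative to the density 20 to 50 kb away, in unequal distance classes (kb); points are whole lists and have no error bars. All 4 lines stand at 1.79-fold or more within 100 bp, mitoxantrone at 2.35-fold, and lie near 1 beyond 300 bp.

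High values did not go with more sharing in mitoxantrone and went with slightly more in etoposide. Etoposide regions of value 4 to 6 were shared at 4.95% (95% interval 4.71 to 5.20), and those of value 20 to 50 at 5.76% (5.39 to 6.15). At values of 50 and over the share was 26 of 477 regions, 5.45% (3.59 to 7.88), an interval that holds all other classes. Mitoxantrone regions were shared at 3.91% in the lowest class and 3.74% (3.29 to 4.24) in the highest, with the classes between them at 3.77% to 3.90%. Across the 7324 pairs the values of the 2 drugs had a rank correlation of 0.08, given as a description, since the pairs share the genome position and its sequence. Shared regions had a median value of 9.16 against 8.82 for etoposide-only regions, and 13.61 against 13.29 in mitoxantrone. They were also wider, at a median of 167 against 161 bp in etoposide and 166 against 160 bp in mitoxantrone.

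**Figure D2:**
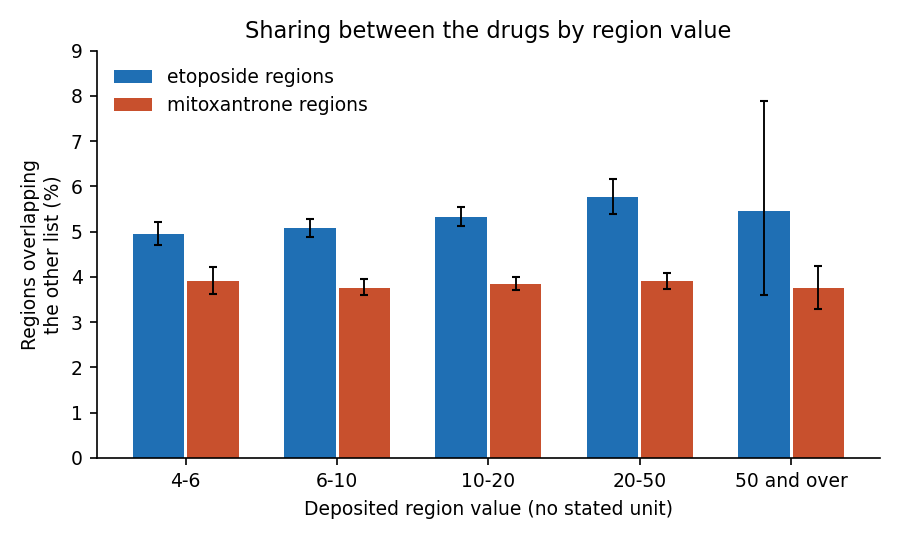
Share of regions (%) that overlap the other drug's list, by deposited region value (no stated unit), with bars for etoposide and mitoxantrone and exact binomial 95% intervals. Etoposide runs from 4.95% to 5.76% and mitoxantrone from 3.74% to 3.91%.

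Etoposide regions joined from 2 or 3 values met mitoxantrone more often. Some joined regions held values of more than 1 library part. With no value minimum, 606 fine A and 323 fine B regions also carried a coarse value. The joined regions kept were not split in this way. Of 1392 joined regions 115 were shared, 8.26% (95% interval 6.87 to 9.83), against 5.17% (5.06 to 5.29) of those with 1 value. Joined regions were wider as well, at a median of 221 against 161 bp. Within widths of 200 to 300 bp the shares were 8.93% (6.68 to 11.6) and 7.09% (6.63 to 7.56), and the intervals overlapped. At 300 bp and over they were 11.6% (8.17 to 15.8) and 8.94% (8.32 to 9.59). At 150 to 200 bp they were 6.38% (4.28 to 9.09) and 4.95% (4.80 to 5.11), and under 150 bp 4 of 111 regions (0.99% to 8.97%) and 4.40% (4.22 to 4.59), so the intervals overlapped in every width class.

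The places shared by both drugs were more often present under the other treatments. Shared regions were also wider, as given above, and the shares below were not split by width. Of the shared etoposide regions 7.99% met a vehicle region (95% interval 7.38 to 8.64), against 5.67% (5.55 to 5.79) of the etoposide-only ones. For genistein, a plant isoflavone that also poisons TOP2, the shares were 14.4% (13.6 to 15.3) and 10.0% (9.85 to 10.2). For p-benzoquinone, a benzene metabolite given for 4 h, they were 5.55% (5.03 to 6.10) and 4.90% (4.79 to 5.02). The mitoxantrone side was alike, with 8.24% of shared against 5.05% of mitoxantrone-only regions meeting the vehicle, 14.4% against 9.56% meeting genistein and 5.71% against 4.42% meeting p-benzoquinone. Most regions of either kind were in no other list: 75.2% of the shared and 81.1% of the etoposide-only regions met none of the 3 others, and 7 and 85 regions met all of them. Only the mitoxantrone list carries an input signal, and its median was 0.23 in shared and in mitoxantrone-only regions, and it was 0 in 1610 of 7319 and in 40920 of 183002 of them, the latter 22.4%. Its upper quartile was 0.47 in shared and 0.71 in mitoxantrone-only regions. The log2 of treated over input signal, where there was input, had a median of 5.02 in shared and 4.82 in mitoxantrone-only regions.

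Of the 8 pairs highest in both lists 3 lay on chromosome 19, which is given as a description of few pairs. That chromosome held 2217 of the 140657 etoposide and 2900 of the 190321 mitoxantrone regions. Ranked by the lower of their percentiles, the first was chr18:29100837-29101135 by its etoposide region, outside any protein-coding gene, with values of 49.26 for etoposide and 86.89 for mitoxantrone and an overlap of 287 bp. The next lay in BCAT2, the mitochondrial branched-chain aminotransferase (chr19:48808258-48808436), with 48.25 and 84.62. CHD9, a chromatin remodelling helicase, followed (chr16:53071846-53072159), with 69.62 and 77.78. KLHL26, a Kelch-family protein, held the mitoxantrone region of highest value among the 8 first pairs, 135.49, over an etoposide region of 38.36 (chr19:18657400-18657903). Of the 8 pairs 6 had no region in the vehicle, genistein or p-benzoquinone list. Over all shared etoposide regions this share was 75.2%, so the count is no result about these pairs. The KLHL26 pair had a p-benzoquinone region of 4.58. The pair ranked 8, whose regions overlapped by only 1 bp, had a vehicle region of 19.42 and a p-benzoquinone region of 9.79.

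The regions of highest value in each list had no counterpart in the other, as was so for most regions, 133338 of 140657 in etoposide and 183002 of 190321 in mitoxantrone. Among the 4 highest found for etoposide alone were a region of 116.19 in MYO1E, an unconventional myosin (chr15:59239790-59239960), whose nearest mitoxantrone centre was 3.215 kb away, and a region of 106.38 in NRXN3, a presynaptic adhesion protein (chr14:78477878-78478041), with a mitoxantrone centre 0.592 kb away. Among the 4 for mitoxantrone alone were a region of 213.66 outside genes (chr17:49478647-49478840), 12.267 kb from an etoposide centre, and one of 197.81 in SNCAIP, which encodes synphilin-1 (chr5:122412445-122412598), 2.687 kb from one. Their input signals in the mitoxantrone list were 9 and 1.18.

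The second comparison asks whether the drugs favoured different parts of genes. Both put nearly the same share of regions into protein-coding gene bodies, 46.2% for etoposide and 46.0% for mitoxantrone, a log2 ratio of 0.01 with a 95% interval of -0.01 to 0.02 after scaling to list size. Within 1 kb of a gene's ends lay 2.29% of etoposide and 2.22% of mitoxantrone regions, a log2 ratio of 0.04 (-0.02 to 0.11). Of the shared regions 1.95% (1.65 to 2.30) in the etoposide list and 1.91% (1.61 to 2.25) in the mitoxantrone list lay at gene ends. For regions of 1 drug only the shares were 2.31% (2.23 to 2.39) and 2.23% (2.17 to 2.30), and the intervals overlapped in both lists. Regions with a fine value were also taken where their highest value, which could belong to another part, was at least 4. There the log2 ratio at gene ends was 0.14 (-0.52 to 0.72) for fine A and 0.41 (-0.05 to 0.84) for fine B, intervals that include 0. An alternative chosen after seeing the data dropped the value minimum for etoposide only, with mitoxantrone still at values of at least 4. There the fine A and fine B parts of etoposide exceeded mitoxantrone at gene ends by 0.47 (0.33 to 0.60) and 0.52 (0.35 to 0.69) on the log2 scale. In fine A 17279 of 17563 values lay below 4, and in fine B 8741 of 9830, so unlike values were compared.

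Genes of under 10 kb were the length class whose interval lay off 0, with no adjustment for the 5 classes. In these 5328 genes etoposide had 1133 regions and mitoxantrone 1379, a log2 ratio of 0.15 (95% interval 0.04 to 0.27). The other classes, from 10 kb to over 500 kb, ran from -0.03 to 0.02. Both lists became denser with gene length, from 45.1 to 58.4 regions per Mb for etoposide and from 54.9 to 78.0 per Mb for mitoxantrone. Both were also sparser where genes are dense. In 1 Mb windows without a gene start etoposide had 57.8 regions per Mb and mitoxantrone 79.3, and in windows with 15 or more starts they had 44.3 and 58.8, with log2 ratios between -0.02 and 0.03 in the 4 classes of gene density.

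At gene starts both lists thinned out as G and C rose. Etoposide regions met 368 of the 21156 windows, 1.74% (95% interval 1.57 to 1.92), and mitoxantrone regions met 433, 2.05% (1.86 to 2.25). The median G and C content was 62.7% over all windows, 55.3% in those met by etoposide, 56.0% in those met by mitoxantrone and 48.5% in the 22 met by both. CG pairs, the bases that CpG methylation needs, had a median of 21 per window over all windows, 10 in etoposide windows and 9 in mitoxantrone windows. Windows were split by G and C content into 5 classes of nearly equal size. In the richest class etoposide met 0.277% and mitoxantrone 0.393%, against 2.78% and 3.84% in the poorest. The lists of the vehicle, genistein and p-benzoquinone also had their lowest shares in the richest class, at 0.416%, 0.647% and 1.18%. The interval of the ratio lay off 0 in the second poorest of the 5 classes, with no adjustment for their number: there etoposide met 2.87% and mitoxantrone 2.61% of windows, a log2 ratio of 0.57 (0.19 to 0.96) after scaling to list size.

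**Figure D3:**
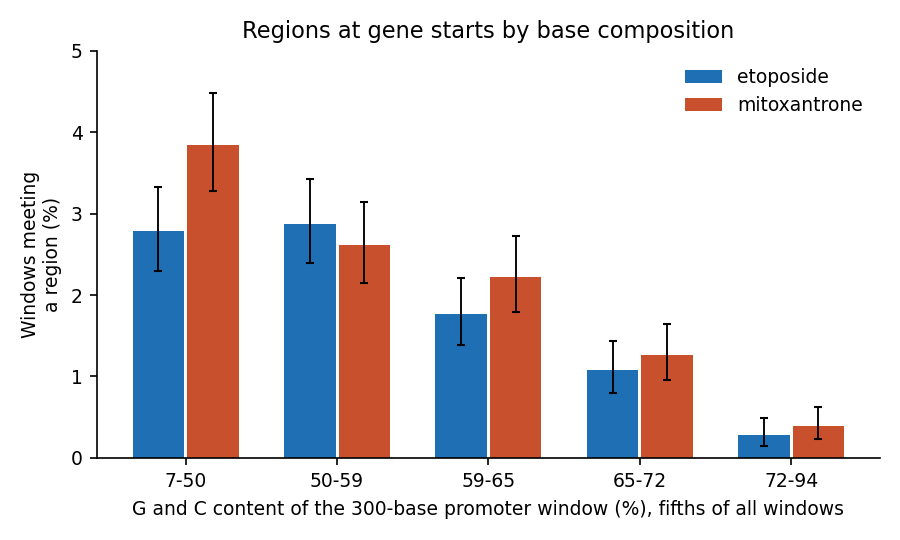
Share of 300-base windows at gene starts (%) that meet an etoposide or a mitoxantrone region, in 5 classes of G and C content (%), with exact binomial 95% intervals. Both fall from 2.78% and 3.84% in the poorest class to 0.277% and 0.393% in the richest.

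The third comparison sets the drugs side by side gene by gene. Of 19126 protein-coding genes on chromosomes 1 to 22, 14082 held a region of either list and 1989 held at least 20 in both together. In these 1989 genes the ratio of etoposide to mitoxantrone regions, scaled to list size, was 2-fold or more towards etoposide in 57, which is 2.87% of the genes tested. It was 2-fold or more towards mitoxantrone in 53, or 2.66%. The spread of the counts over the genes was 0.955 times what counting error alone gives. The exact binomial 95% interval, not adjusted for the number of genes, lay off 0 in 30 and 13 of these genes. The genes called had a median of 25 regions in both lists together, against 33 over all genes tested. So the genes below, which stand at the ends of this spread, are described and not called different.

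COL4A1, a chain of the type IV collagen of basement membranes, had 19 etoposide and 6 mitoxantrone regions, 12.0 and 3.79 per 100 kb, and a log2 ratio of 2.10 (95% interval 0.72 to 3.71). TET2, which oxidises methylated cytosine and is often mutated in myeloid leukaemia, had 18 and 7, a log2 ratio of 1.80 (0.47 to 3.30). RAB11FIP4, an effector of endosome recycling, and CACNA2D2, a calcium channel subunit, both had 16 and 6. GREB1, an oestrogen-responsive gene, had 17 and 7, and SESTD1, a spectrin-domain protein, 16 and 7. NALF1, a chaperone of the sodium leak channel chosen here after its values were seen, had the most regions of any gene called, 53 and 34, a log2 ratio of 1.08 (0.43 to 1.74). At the other end stood TSGA10, a gene active in the testis, with 4 etoposide and 21 mitoxantrone regions and a log2 ratio of -1.96 (-3.96 to -0.39). SLC26A7, an anion transporter, had 5 and 23, and LIPA, the lysosomal acid lipase, 5 and 22. MARCHF6, a ubiquitin ligase of the endoplasmic reticulum, had 4 and 17, PTPRZ1, a receptor tyrosine phosphatase of glia, 6 and 25, and ASH1L, a histone methyltransferase, 5 and 20.

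Shared regions fell in 2444 genes, and 49 genes held 5 or more. LRP1B, a giant lipoprotein receptor at a common fragile site, held the most, 10, among 117 etoposide and 179 mitoxantrone regions. Per length, FAM107B held the most among those 49 genes, 5 shared regions in 256 kb or 1.95 per 100 kb. KIAA1328 had 1.49 per 100 kb, DOCK2, a Rac activator of lymphocytes, 1.12, SORCS2, a sorting receptor, 1.09, and FGGY, a carbohydrate kinase, 1.07. None of these 5 had a ratio of region numbers whose interval lay off 0.

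The leukaemia translocation genes bear on therapy-related disease, and the list of 35 held 321 etoposide and 458 mitoxantrone regions. Its summed log2 ratio was -0.08 (95% interval -0.29 to 0.13), beside 0.00 over all protein-coding genes. Of its 14 genes with at least 20 regions 0 were 2-fold apart in either direction, beside 2.87% and 2.66% over all genes tested, so this count is no result about the list. MLLT3 had 22 and 23 regions, ETV6 13 and 13, EBF1 32 and 39, and ERG 17 and 14. RUNX1 had 11 and 19, AFF1 10 and 16, MLLT10 9 and 19, MECOM 31 and 51, and ALK 43 and 68, all with intervals that include 0. IKZF1, the Ikaros factor of lymphoid cells, had 2 and 11, a log2 ratio of -2.02 (-5.24 to 0.17), below the limit of 20 regions. The list had 16 shared etoposide regions.

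KMT2A, the histone methyltransferase broken in infant and therapy-related leukaemia (chr11:118436492-118526832), held 6 etoposide and 12 mitoxantrone regions. None was shared, which at 5.20% and 3.85% shared over all regions is no result about the gene. Its log2 ratio was -0.56 (95% interval -2.26 to 0.96). The etoposide regions had values of 4.40 to 10.86 and were scattered from 6% to 87% of the gene's length. The mitoxantrone regions had values of 4.21 to 81.03, and 7 of the 12 lay in a stretch of 12.5 kb in the middle of the gene (chr11:118477166-118489683). The 2 highest of these, 79.08 and 81.03, stood at chr11:118482411-118482558 and chr11:118484214-118484498. Etoposide had 0 regions in that stretch, the vehicle 1 with a value of 41.94, genistein 3 and p-benzoquinone 6, with a highest value of 221.47. Over the whole gene etoposide had 6.64 regions per 100 kb, so 12.5 kb without an etoposide region is no result about the drugs. The stretch was chosen after its values were seen. Runs of 7 consecutive mitoxantrone regions within 12.5 kb numbered 47 in the list, and such runs of etoposide regions 11. Overlapping runs were counted separately, so distinct places may be fewer.

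PML and RARA, the partners in acute promyelocytic leukaemia, had few regions. In PML there was 1 etoposide region, of value 24.46 (chr15:74042843-74042982), and there were 7 mitoxantrone regions, of 6.16 to 36.31. The log2 ratio of -2.37 had an interval from -7.87 to 0.59, so the difference was not detectable at this number of regions. The vehicle list had 8 regions in PML, genistein 7 and p-benzoquinone 4. RARA had 1 etoposide region, of value 6.44, and 3 mitoxantrone regions, of 5.82, 8.42 and 26.25. No region of either gene was shared, which for so few regions is no result at these shares either.

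Among genes that deal with the drugs' damage, no list was apart. The 15 topoisomerase and adduct repair genes held 39 etoposide and 66 mitoxantrone regions, a log2 ratio of -0.32 (95% interval -0.93 to 0.27), with 5 and 9 in MRE11, the nuclease that opens blocked ends, and 7 and 6 in RBBP8, its partner CtIP. In the 18 double-strand break repair genes there were 100 and 127 regions, a log2 ratio of 0.09 (-0.30 to 0.48). XRCC4, the scaffold of end joining, had 27 and 25. POLQ, the polymerase of theta-mediated end joining, had 5 and 15, a log2 ratio of -1.15 (-2.96 to 0.38), and was 2-fold apart; it was 1 of 2 genes of that list with at least 20 regions, beside the 2.66% over all genes tested. The 9 drug transporter genes held 39 and 50 regions, with 11 and 13 in ABCB1, the efflux pump P-glycoprotein, and 19 and 20 in ABCC4.

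Lists of other genes were likewise not apart beyond counting error. The 18 erythroid genes measured, of 20, held 37 etoposide and 55 mitoxantrone regions, a log2 ratio of -0.14 (95% interval -0.78 to 0.49), with 8 and 18 in EPB41, which encodes a protein of the red cell skeleton. The 13 common fragile site genes measured, of 14, held 1158 and 1625, a log2 ratio of -0.05 (-0.16 to 0.06), the narrowest interval of any list. DLG2, a synaptic scaffold, held 132 and 178. The 14 neuronal markers held 354 and 460, a log2 ratio of 0.06 (-0.15 to 0.26), with 123 and 137 in NRXN3. For ribosomal protein genes the numbers were 10 and 13, for the 10 housekeeping genes measured 6 and 9, for T-cell and B-cell markers 28 and 35, and for hepatocyte markers 21 and 21, which after scaling to list size was the highest ratio of any list, 0.44 (-0.51 to 1.38). Every list's interval included 0.

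The last comparison asks whether the drugs differed by chromosome. Region numbers of the drugs had a Pearson correlation of 0.998 over 22 chromosomes, which differ in size. The scaled ratio ran from 0.932 on chromosome 7 to 1.09 on chromosome 22, so differences were small. Chromosome 22 had a log2 ratio of 0.13 (95% interval 0.03 to 0.23) and chromosome 14 of 0.11 (0.06 to 0.17). Chromosomes 17, 20, 13 and 9 were above 0 as well, at 0.09, 0.08, 0.06 and 0.05. Chromosome 7 was at -0.10 (-0.14 to -0.06) and chromosome 1 at -0.08 (-0.11 to -0.04), and the intervals of the other 14 included 0. The spread was 4.70 times that of counting error alone. It moved with the input signal: the ratio had a Pearson correlation of -0.77 and a Spearman correlation of -0.74 with the mean input of mitoxantrone regions over the 22 chromosomes. Both measures use the mitoxantrone list. The ratio of etoposide to vehicle, which does not, had a Pearson correlation of -0.68 and a Spearman correlation of -0.60 with the same input. For the ratio of mitoxantrone to vehicle these were -0.06 and -0.22. The part of the input in these ratios was not tested.

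**Figure D4:**
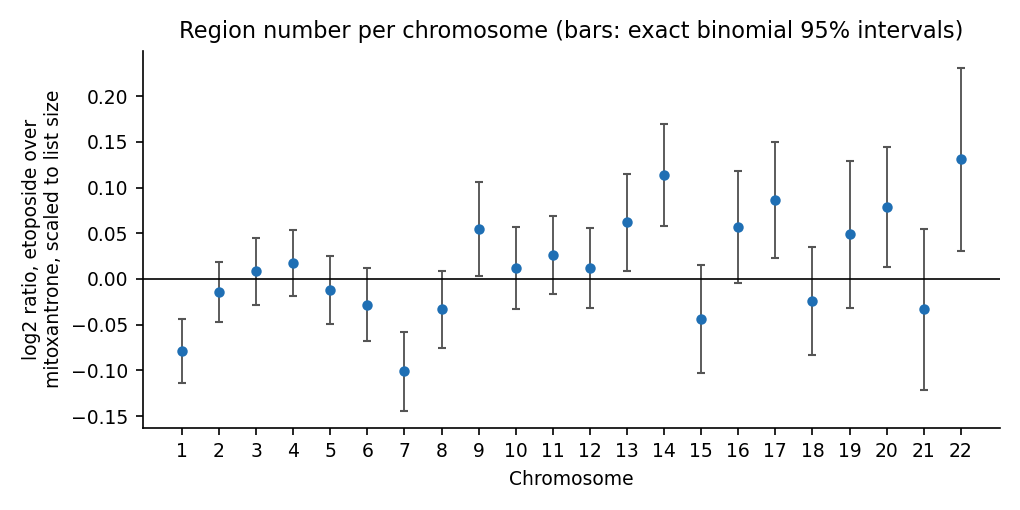
The log2 ratio of etoposide to mitoxantrone region numbers, scaled to list size, on each of chromosomes 1 to 22; points are the ratios and bars exact binomial 95% intervals. Chromosomes 14 and 22 stand highest at 0.11 and 0.13, and chromosomes 7 and 1 lowest at -0.10 and -0.08.

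At 1 Mb the drugs were near counting error again. Of 2598 windows with at least 40 regions in both lists together, 0 were 2-fold or more towards etoposide (0%) and 1 towards mitoxantrone (0.0385%), and the spread was 0.988 times that of counting error. That window, chr7:140000001-141000000, had 25 etoposide and 70 mitoxantrone regions, a log2 ratio of -1.05 (95% interval -1.77 to -0.37), and holds, among others, the genes TBXAS1, PARP12 and BRAF, which encodes a kinase of the MAPK cascade. Towards etoposide the first was chr17:1-1000000, with 27 and 19. Over 552 windows of 5 Mb the log2 ratio ran from -0.71 to 0.40 and the spread was 1.25 times that of counting error.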

How the data were processed

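TOP2A-bound DNA of K562 cells was sequenced after exposure to vehicle or a TOP2 poison. The submitters' processing notes list the aligner Bowtie2 2.1.0, the toolkit SAMtools 0.1.19 and the build hg38. How regions were called is not given in the sources used here. There is 1 deposited list per treatment, and that of mitoxantrone is named in no sample description; treatment alone tied it to the library. The authors' deposited region value has no stated unit; it was read as a signal in the genistein and mitoxantrone lists. Only the deposited mitoxantrone list also holds an input signal, a log2 value of treated over input signal and, where the input was 0, a p-value, at most 0.00891 among the regions kept. The number of reads per library is unknown.

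Members and lists were chosen with earlier results of these data known. Of comma-separated values the highest was taken. Ratios of region numbers were divided by the ratio of the list sizes, with exact (Clopper-Pearson) 95% intervals. Gene positions were those of RefSeq on GRCh38.p14, without strand or exons; promoter windows matched 15101 genes of 19126 by symbol or identifier. Genes named were the 6 highest and 6 lowest ratios with at least 20 regions, the 5 with most shared regions per 100 kb among those with at least 5, and the genes of each list with most regions; not every such gene is reported here. Library parts were found from value steps after seeing the data. Scripts ran under Python 3.11.15 (pandas 2.3.3, numpy 2.4.6, matplotlib 3.10.9, scipy 1.17.1) and were tested on simulated data.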

Additional observations from a re-analysis of the deposited data

How the results depend on the processing

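No paired analysis was possible because the drugs share a single replicate number and each drug has 1 pooled list, so no library could be left out either; library parts were used in its place. The fine parts with no value minimum, set against mitoxantrone regions of value 4 or more, were chosen after seeing the data. The fine parts had too few regions of value 4 or more to be run for chromosomes, windows, genes and gene lists. Where they were run at this minimum, it was set on a region's highest value, which could belong to another part. Only 284 fine A and 1089 fine B values were themselves at least 4. Of the etoposide regions 5.20% were shared in the values reported. The share was 5.05% with no value minimum, 4.38% with a minimum of 8, 4.23% at an overlap of 50 bp, 3.82% at 50% of the shorter region and 2.89% for the 100000 highest regions of each list. The value limits and the 100000 highest regions also change the length of the list that is met. For the 100000 highest, 2.89% is also the share per 100000 regions met, beside 2.73% in the values reported. The share was 7.54% in fine A and 5.03% in fine B, taken by highest value, and 4.31% and 3.91% in them with no minimum. Of the mitoxantrone regions 3.85% were shared, and under the first 5 of these settings 4.54%, 2.40%, 3.12%, 2.82% and 2.88%, and 3.47% with the coarse part alone. The rank correlation was 0.027 with no minimum, and the fold within 100 bp to 2.27, or 2.05 and 1.85 in fine A and fine B. For values of 20 to 50 the shares were 4.87% and 4.38% of etoposide regions, and 3.19% and 2.89% of mitoxantrone regions, at overlaps of 50 bp and of 50%. In gene bodies the log2 ratio was 0.12 in fine A and 0.11 in fine B, and 0.087 and 0.11 with no minimum. At gene ends it was 0.13 with no minimum, 0.14 (-0.52 to 0.72) in fine A and 0.41 (-0.05 to 0.84) in fine B, and 0.47 and 0.52 in them with no minimum. With a minimum of 8, intervals lay off 0 on 4 chromosomes instead of 8, and 9 windows of 1 Mb were 2-fold apart instead of 1, against 0 of 5 Mb. The spread over windows was 1.17 with no minimum and 1.25 at 5 Mb. Genes 2-fold towards etoposide numbered 30 with a minimum of 8, 276 at 10 regions and 8 at 40, and towards mitoxantrone 302 at 10 and 1 at 40. The number of genes tested changed with these settings and is not given, so these counts are no shares. The spread over genes at the 3 settings was 0.952, 0.934 and 0.909 times that of counting error. The ribosomal protein ratio, on 10 and 13 regions, was -1.46 with a minimum of 8. With no minimum in the other lists, 11.1% of shared and 7.99% of etoposide-only regions met the vehicle, and 9.24% and 7.88% met p-benzoquinone. The cause of these shifts was not tested. The remaining 92 values of this kind stayed within their limits. For 58 named genes all 229 alternative values lay within the interval reported; 16 changed sign, among them RARA, which was at 0.15 with no minimum.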
